A study of Mus musculus with 6 samples.

Results

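The SOCS family, the suppressors of cytokine signalling, was followed across 2 mouse hybridomas, one that produced IL-17 and one that did not. Its members were taken by gene symbol: Cish and Socs1 to Socs7, or 8 of the 19057 genes with a probe on the Illumina array. The family itself was chosen by measured values, the lower Socs3 signal of the producing hybridoma on these same arrays, so the differences between the hybridomas given here for its members are a description without a test. A hybridoma is an immortal line that arises when a lymphocyte is fused to a tumour cell. The 6 arrays held total RNA from 3 samples of the non-producing hybridoma, DE3, and 3 of the producing hybridoma, S2, kept in the same serum-supplemented RPMI medium with no treatment or stimulus named in the labels. Each group carried 1 clone name, and whether its 3 samples were separate cultures is not stated, so the spread and every p-value measure differences between these samples, which may be technical. The lymphocyte that was fused, the tumour line and any genetic change are not named in the labels.

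SOCS proteins are feedback inhibitors of cytokine receptors that signal through Janus kinases (JAKs) and STAT transcription factors. An activated STAT induces a SOCS gene, and the SOCS protein docks through its SH2 domain on the receptor or the kinase. Its carboxy-terminal SOCS box recruits elongins and cullin 5, which ubiquitinate what is bound. CIS, encoded by Cish, and SOCS2 are close relatives best known from STAT5 and growth hormone signalling, and SOCS1 and SOCS3 also block the kinases directly. SOCS4 to SOCS7 have long amino-terminal regions and are less studied in lymphocytes. In T cells SOCS3 is known as a brake on STAT3 downstream of IL-6 and IL-23, the route that favours IL-17.

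The array listed 15 probes for the family, 10 of them bright enough to be tested and at least 1 for each of the 8 genes. Testing required a detection p-value below 0.05 on 3 or more of the 6 arrays. The other 5 probes, 1 of Socs2, 1 of Socs5 and 3 of Socs6, were at background on all arrays, with deposited signals between 47.9 and 64.6. For comparison, the median signal over all probes of an array was 63.0 to 67.9. Genes were read from their brightest tested probe.

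Promoter sequence was matched for 4 of the 8 genes. The windows run from 250 bases before to 50 bases after the annotated transcription start, in GRCm38.p6 of RefSeq. They lie at chr9:107296409-107296708 on the plus strand (Cish), chr11:117969317-117969616 on the minus strand (Socs3), chr16:10785487-10785786 on the minus strand (Socs1) and chr14:47276670-47276969 on the plus strand (Socs4). They are shown because STAT factors are known inducers of family members such as Cish, though not of every member. Capitals mark each match to TTCNNNGAA, the palindromic letters to which STAT dimers bind. Each sequence reads 5′ to 3′ along the gene's strand.
Cish: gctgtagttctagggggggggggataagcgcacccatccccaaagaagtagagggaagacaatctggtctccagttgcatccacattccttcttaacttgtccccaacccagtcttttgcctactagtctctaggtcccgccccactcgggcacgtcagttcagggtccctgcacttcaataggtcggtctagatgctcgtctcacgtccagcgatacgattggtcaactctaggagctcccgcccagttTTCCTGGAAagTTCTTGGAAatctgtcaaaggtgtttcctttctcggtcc
Socs3: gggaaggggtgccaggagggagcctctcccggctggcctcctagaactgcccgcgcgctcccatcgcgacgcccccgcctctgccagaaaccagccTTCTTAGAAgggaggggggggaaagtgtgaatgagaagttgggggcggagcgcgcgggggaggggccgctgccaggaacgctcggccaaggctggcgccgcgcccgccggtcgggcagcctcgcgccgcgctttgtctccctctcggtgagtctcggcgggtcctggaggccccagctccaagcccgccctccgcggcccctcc
Socs1: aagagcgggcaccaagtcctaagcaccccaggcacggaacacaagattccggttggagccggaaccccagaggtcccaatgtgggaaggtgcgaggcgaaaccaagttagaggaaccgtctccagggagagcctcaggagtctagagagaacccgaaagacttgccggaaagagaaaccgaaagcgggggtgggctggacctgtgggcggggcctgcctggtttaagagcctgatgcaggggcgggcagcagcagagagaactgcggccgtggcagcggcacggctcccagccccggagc
Socs4: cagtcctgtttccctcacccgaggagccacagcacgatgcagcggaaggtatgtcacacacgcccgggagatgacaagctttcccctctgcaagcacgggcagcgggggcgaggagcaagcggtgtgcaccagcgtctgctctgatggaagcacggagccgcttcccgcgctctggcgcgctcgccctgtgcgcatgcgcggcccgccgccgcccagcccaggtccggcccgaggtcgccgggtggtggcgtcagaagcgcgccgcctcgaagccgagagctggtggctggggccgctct

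Cish held 2 matches and Socs3 held 1, while the windows of Socs1 and Socs4 held none. In Cish the match TTCCTGGAA began at base 1 of the annotated transcript and TTCTTGGAA at base 12. In Socs3 the match TTCTTAGAA began 154 bases before the annotated start. The motif reads the same on both strands, so a search of either finds the same sites, and no match overlapped another in these windows. Of 32851 promoter windows of that length in the table, 8.30% held at least 1 match and 0.457% held at least 2. A match in these letters is not a measured binding site, and a window without one says nothing about the factors.

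The family's transcripts were lower in the producing hybridoma for most members. Socs2, Socs3 and Socs5 stood at 2.61-fold, 2.54-fold and 2.64-fold less signal there, Cish, Socs7 and Socs4 differed less in the same direction, and Socs6 and Socs1 did not pass the test run across all probes. Of the 8 members, 6 passed that test (limma, Benjamini-Hochberg over 17445 probes, threshold 0.05) and all 6 were lower. Of all 9395 genes tested, 36.7% passed, 18.6% lower and 18.1% higher in the producing hybridoma. A log2 difference of -1 or less was reached by 3 members, and with the test passed by 2.35% of all genes (1.28% were higher by as much). The median log2 difference, producing minus non-producing, was -0.54 over the 8 members and 0.00020 over all genes tested. In 7 of the 8 members the producing arrays lay wholly below the non-producing arrays. Of all genes, 51.3% had groups that did not overlap, 25.9% with the producing group lower and 25.5% with it higher. Since this contrast led to the choice of the family, nothing is read from these shares.

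**Figure D1:**
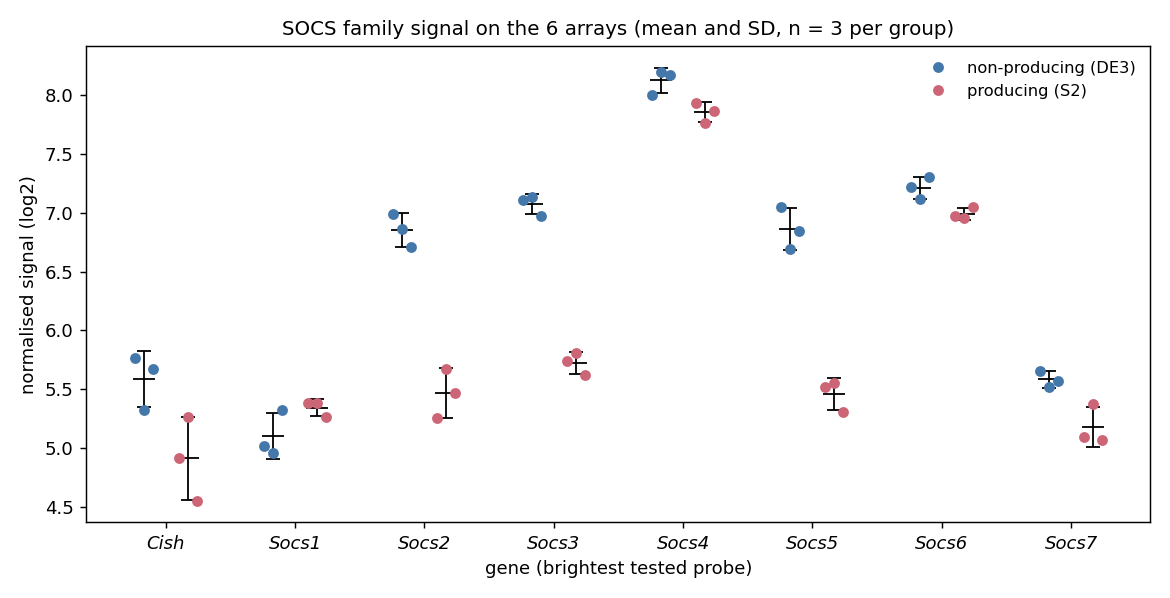
Normalised log2 signal (vertical axis) of the brightest tested probe of each SOCS family gene (horizontal axis) on the 3 non-producing and 3 producing arrays; points are arrays, and lines give the mean and SD. Socs2, Socs3 and Socs5 stand furthest apart, while the groups overlap for Socs1.

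The arrays of the 2 hybridomas differed in brightness. In the file headers they shared a number and carried the letters A to C (non-producing) and D to F (producing). What the number and letters stand for is not stated, and letter and hybridoma cannot be told apart. Mean signal was 505 to 559 on the non-producing and 399 to 482 on the producing arrays, and 38.0% to 39.4% against 36.9% to 37.4% of the probes were detected. After quantile normalization 49.4% of the genes past the threshold were higher in the producing hybridoma, but only 12.5% under scaling to a common median, which moved the median of all genes to -0.23. Of 9 T cell markers with a probe, 7 were detected, among them Cd3d, Cd3e, Cd3g and Cd247, and Cd2 and Cd5 were not. Their summed normalised signal was 41343 to 43100 on the producing and 50177 to 53224 on the non-producing arrays. Past the threshold 3 of them were lower and 2 higher, a share of 71.4% against 36.7% of all genes. The part of these differences in the SOCS values was not tested. None of 7 myeloid, 5 natural killer and 5 fibroblast markers was detected, and 1 of 6 B cell markers (Sdc1) and 1 of 4 erythroid markers (Klf1) were, neither past the threshold. Il17a and Il17f, which give the groups their name, were detected on 0 of the 6 arrays, so the labels were not checked by these transcripts. A gene that is uniformly lower and a smaller share of cells expressing it cannot be told apart in bulk RNA.

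Socs3, the inhibitor of the IL-6 receptor family, had deposited signals of 212.4, 197.6 and 178.1 on the non-producing arrays and 94.7, 100.4 and 84.5 on the producing arrays. All 6 values were above background, and the lowest non-producing array was well clear of the highest producing one. On the normalised log2 scale the non-producing arrays read 7.11, 7.13 and 6.97 and the producing arrays 5.74, 5.81 and 5.62. The means were 7.07 ± 0.086 and 5.72 ± 0.094 (SD, n = 3), a log2 difference of -1.35 (standard error 0.086). Among the 9395 genes ordered from the largest decrease, Socs3 was at place 117, and Socs2 and Socs5 were at places 110 and 104. The array has a single probe for Socs3, so no other probe could be set beside it. Without background correction the log2 difference was -0.87, and with an offset of 50 it was -0.83, so its size depended on how background was treated.

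Socs2, the regulator of growth hormone signalling, had deposited signals of 199.5, 171.2 and 155.0 on the non-producing and 81.1, 95.5 and 80.8 on the producing arrays. The normalised values were 6.99, 6.86 and 6.71 against 5.26, 5.68 and 5.47. The groups did not overlap, and the log2 difference of -1.38 (standard error 0.12) was close in size to that of Socs3. Its other probe was at background on every array, with signals of 49.7 to 59.4. Without background correction the difference of Socs2 was -0.85.

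Cish, the relative of SOCS2 that is induced by IL-2 through STAT5, was dim in both hybridomas. Its deposited signals were 108.0, 87.8 and 98.7 on the non-producing arrays and 73.3, 83.6 and 60.0 on the producing arrays. It was detected on all 3 non-producing arrays and on 1 of the 3 producing arrays. The normalised values of 5.77, 5.32 and 5.67 lay above the 4.92, 5.27 and 4.56 of the producing group, with producing array 2 close to the lowest non-producing array. At -0.67 on the log2 scale, its difference had the largest standard error in the family, 0.18. Leaving out non-producing array 1 (-0.58), non-producing array 3 (-0.63), producing array 1 (-0.68) or producing array 3 (-0.50) took Cish out of the genes that passed. It also did not pass with all probes on the array in the fit, and it stood at -0.35 without background correction.

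Socs1, the inhibitor best known for limiting interferon-γ signalling, was the only member not lower in the producing hybridoma. Its deposited signals were 79.5, 77.5 and 87.3 on the non-producing and 84.2, 86.8 and 76.3 on the producing arrays, all near background. The normalised values were 5.02, 4.96 and 5.33 against 5.39, 5.39 and 5.26, so the groups overlapped. The log2 difference of 0.24 had a standard error of 0.11 and did not pass, except without non-producing array 3 (0.35). Chromosome 16, on which Socs1 lies, had a median difference of 0.24 over its 295 tested genes.

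Socs5, linked to the IL-4 receptor and to the epidermal growth factor receptor, had deposited signals of 206.0, 156.7 and 166.3 on the non-producing arrays and 88.1, 91.5 and 77.3 on the producing arrays. Its normalised values were 7.05, 6.69 and 6.84 against 5.52, 5.55 and 5.31. The groups were far apart, at a log2 difference of -1.40 (standard error 0.11). Socs5 lies on chromosome 17, where the median difference of the 481 tested genes was 0.30, and with each chromosome's median removed its difference was -1.70. The other probe of Socs5 was not detected on any array (signals of 47.9 to 56.1). Without background correction the difference was -0.86.

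Socs4, the closest relative of SOCS5, had 2 tested probes that did not behave alike. The brighter had deposited signals of 354.8, 361.6 and 349.1 on the non-producing and 266.1, 254.6 and 223.7 on the producing arrays. Its normalised values were 7.997, 8.20 and 8.17 against 7.93, 7.76 and 7.86. These groups lay just clear of each other, at a log2 difference of -0.27 (standard error 0.089). The other probe read 6.18, 6.40 and 6.22 against 6.30, 6.39 and 6.46, an overlap, with a difference of 0.11 that did not pass. Socs4 did not pass without non-producing array 2 (-0.23) or 3 (-0.25), without producing array 1 (-0.31), 2 (-0.22) or 3 (-0.28), with the mean of both probes (-0.078) or with chromosome medians removed (-0.16).

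Socs6, which binds the stem cell factor receptor KIT, read 7.22, 7.11 and 7.30 on the non-producing and 6.97, 6.95 and 7.04 on the producing arrays. The groups did not overlap, but the log2 difference of -0.22 (standard error 0.081) did not pass, except with the arrays scaled to a common median (-0.50) or with the mean over the probes of a gene (-0.22). Its other 3 probes were at background, with signals of 50.7 to 64.6. Socs7, which binds the adaptor NCK, was read by 2 probes that moved alike. The brighter read 5.66, 5.52 and 5.57 against 5.09, 5.38 and 5.07, and the other 5.52, 5.56 and 5.63 against 5.08, 4.94 and 5.40. Neither probe's groups overlapped, the log2 differences were -0.41 and -0.43 (standard errors 0.10 and 0.12), and each probe was detected on 1 of the 3 producing arrays. Leaving out non-producing array 1 (-0.37), producing array 1 (-0.36) or producing array 3 (-0.35) took Socs7 below the test, and it stood at -0.20 without background correction.

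**Figure D2:**
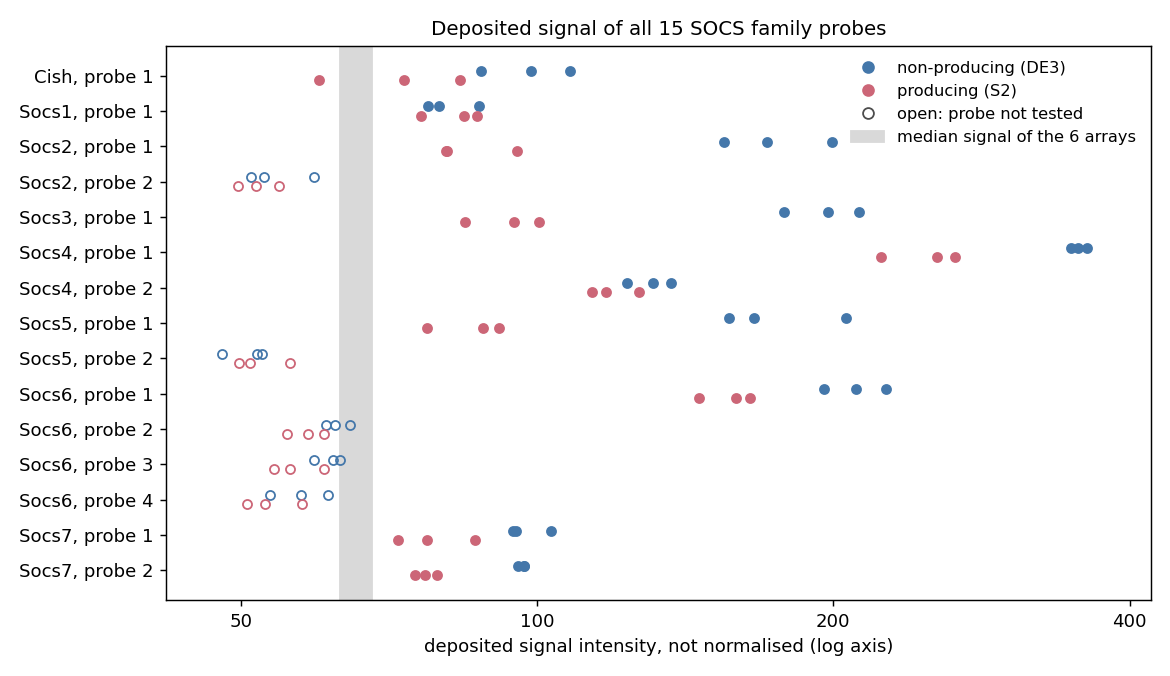
Deposited signal intensity (horizontal log axis, not normalised) of the 15 probes of the SOCS family on the 3 non-producing and 3 producing arrays. Filled points are tested probes and open points probes at background; the grey band spans the median signal of the arrays, 63.0 to 67.9. Most members lie within a few fold of that band.

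The count of members past the test fell with 1 array left out, as did the count of all genes. Without producing array 1 or producing array 3, 14.6% and 15.1% of all genes passed as lower, against 18.6% with all 6 arrays. The member count was 3 in each of these fits, and in both cases the members were Socs2, Socs3 and Socs5. Those 3 genes passed in all 15 alternatives, with log2 differences of -1.58 to -0.80 for Socs2, -1.57 to -0.83 for Socs3 and -1.70 to -0.81 for Socs5. The differences of Cish, Socs4, Socs6 and Socs7 were below 0 in every alternative that measured them. Taken relative to the median of all genes, scaling to a common median gave -1.35 for Socs2, -1.33 for Socs3, -1.36 for Socs5 and 0.37 for Socs1.

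**Figure D3:**
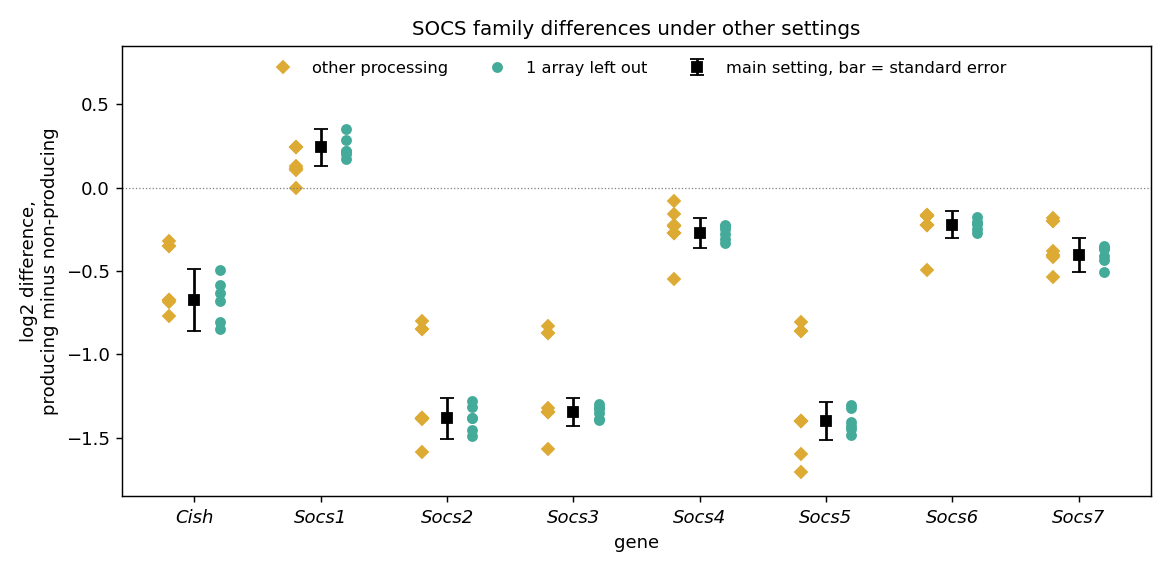
Log2 difference, producing minus non-producing (vertical axis), of each SOCS family gene with its standard error (black squares), under other processing (diamonds) and with 1 array left out (circles). Background treatment moved Socs2, Socs3 and Socs5 most, to between -0.80 and -0.87, and no array moved them as far.

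Genes with the profile nearest to that of Socs3 over the 6 arrays were Kdm5b, a histone H3 lysine demethylase, Aqp9, a channel for water and glycerol, Rnf130, a RING finger protein, Inpp5f, a phosphoinositide phosphatase, and Nt5e, the ectonucleotidase CD73. Likeness was the root mean square difference of log2 values after each probe was centred on its own mean, and it was 0.056, 0.058, 0.060, 0.065 and 0.067. These genes were picked for their likeness, so their log2 differences of -1.30, -1.30, -1.28, -1.37 and -1.38 are a description. The other probes of Kdm5b differed by -1.51 and -0.28, that of Inpp5f by 0.17 and that of Nt5e by -1.28.

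The calls among the kinases and factors that the family restrains depended on the scaling of the arrays. Among the JAK and STAT genes tested, 3 rose and 0 fell while 6 of the 9 did not pass, against the 18.1% higher and 18.6% lower of all genes, and their median log2 difference was 0.16. Jak2, the kinase of growth hormone and interferon-γ receptors, rose from 8.77 ± 0.053 to 9.38 ± 0.061 (SD, n = 3), a log2 difference of 0.61 (limma adjusted p = 0.000694), and its other probe by 0.46. With chromosome medians removed the Jak2 difference was 0.30 (limma adjusted p = 0.0221). Stat3, the factor downstream of IL-6 that SOCS3 restrains, rose by 0.31 (limma adjusted p = 0.0193), with its other probes at 0.41 and 0.42, both past the test. Stat4, the factor of IL-12 signalling, rose by 0.33 (limma adjusted p = 0.0329), and its other probe, at 0.20, did not pass. Stat5a, one of the factors that induce Cish, was at -0.08 and did not pass. Under scaling to a common median none of the 3 passed (Jak2 0.32, Stat3 0.036, Stat4 0.058, with all genes at a median of -0.23), and 2 other genes of the group passed as lower. Relative to that median of all genes, Jak2, Stat3 and Stat4 were at 0.55, 0.27 and 0.29. Without background correction 3 passed as higher and 1 as lower. Stat3 did not pass when non-producing array 2 (0.31), producing array 1 (0.30) or producing array 3 (0.27) was left out, nor Stat4 with any array but non-producing array 2 or producing array 2 left out (0.26 to 0.34). The count was 1 without producing array 1 and 1 without producing array 3.

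Among 17 tested receptor chains that signal through JAKs, 5 were higher and 2 lower past the test, with a median log2 difference of 0.031. Their share past the test was 41.2%, near the 36.7% of all genes. The balance turned under scaling to a common median, with 1 higher and 3 lower, and without producing array 1, with 2 higher and 3 lower. Csf2ra, the binding chain of the GM-CSF receptor, fell from 5.75 ± 0.25 to 4.96 ± 0.21 (SD, n = 3), a log2 difference of -0.79 (limma adjusted p = 0.00469), and was detected on 1 of 3 producing arrays. Ifngr1, the ligand-binding chain of the interferon-γ receptor, rose by 0.63 (limma adjusted p = 0.00495). Il9r, the IL-9 receptor chain, rose by 0.43 (limma adjusted p = 0.0235) and Ifnar2, a type I interferon receptor chain, by 0.39 (limma adjusted p = 0.0227). The other probes of Ifnar2 were at 0.42, past the test, and 0.18, not past. Il6st, the gp130 chain to which SOCS3 docks, was at 0.031 and did not pass, while 18 further chains with a probe were at background, Il2ra, Il4ra, Il7r and Il21r among them. Leaving out any array but non-producing array 3 or producing array 2 (0.34 to 0.44) took Il9r below the test. For Ifnar2 each array but producing array 2 did so when left out (0.30 to 0.40), and it did not pass with chromosome medians removed (0.15) or, like Il9r, with the arrays scaled to a common median (0.12 and 0.29). The count of chains past the test was 3 without non-producing array 2 and 4 after leaving out non-producing array 1, non-producing array 3 or producing array 3.

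Few of the ligands were measured. Of 28 cytokine genes of this receptor class with a probe, 21 were at background, Il6, Il21 and Ifng among them. Among the 7 tested, whose median was -0.0057, 2 fell and 1 rose. The share past the test was 42.9%, near the 36.7% of all genes. Il2, the T cell growth factor that induces Cish, fell from 6.59 ± 0.045 to 5.66 ± 0.28 (SD, n = 3), a log2 difference of -0.93 (limma adjusted p = 0.00129). Il15, which shares receptor chains with IL-2, fell by 0.90 (limma adjusted p = 0.000584), and its other probe differed by -0.88. Osm, the IL-6 family cytokine oncostatin M, rose by 0.44 (limma adjusted p = 0.00409), while its other probe, also at 0.44, did not pass, and it did not pass with the arrays scaled to a common median (0.15). The count stayed at 3 without any 1 of the 6 arrays, and under scaling to a common median it was 2, both lower.

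**Figure D4:**
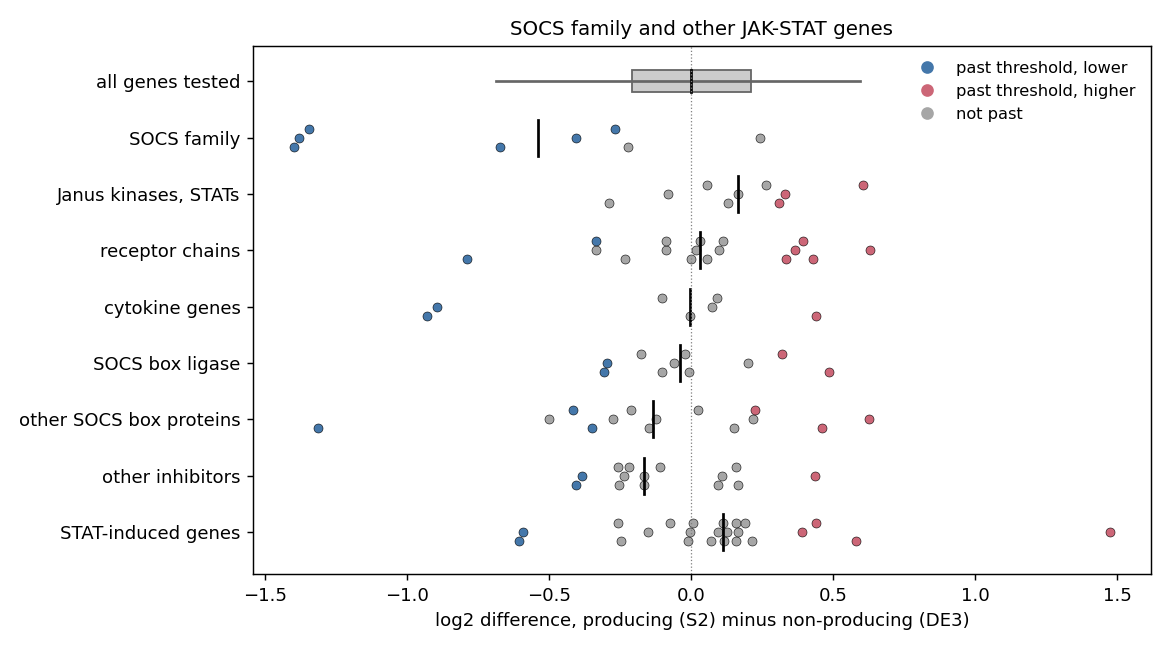
Log2 difference, producing minus non-producing (horizontal axis), for each tested gene of the SOCS family and 7 other groups; the vertical line in each row is the median, and colour marks genes past the threshold. The top row gives all genes tested, with the middle 50% as a box and lines to the 5th and 95th percentiles. The SOCS family, chosen from the Socs3 difference in this same contrast, has the lowest median, -0.54.

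The group listed as SOCS box ligase machinery, Cul2 and Rbx1 included, had 10 tested genes with a median of -0.041, of which 2 rose and 2 fell. Rnf7 and Ube2m, also listed, had no probe. The share past the test was 40%, near the 36.7% of all genes. The balance depended on the processing, with 0 higher and 4 lower under scaling to a common median and 4 higher and 0 lower with the mean over the probes of a gene. Eloc, the elongin subunit that the SOCS box binds, rose from 7.47 ± 0.060 to 7.95 ± 0.044 (SD, n = 3), a log2 difference of 0.48 (limma adjusted p = 0.00192), though not with the arrays scaled to a common median (0.21). Its partner Elob was at 0.20 and the scaffold Cul5 at -0.10, neither past the test. Arih2, the ubiquitin ligase that works with cullin 5, rose by 0.32 (limma adjusted p = 0.0401), and Ube2f, which attaches NEDD8 to cullin 5, fell by 0.31 (limma adjusted p = 0.0445). Both lay near the threshold. Arih2 did not pass with the arrays scaled to a common median (0.033), and leaving out any array but non-producing array 1 also took it below the test (0.23 to 0.36). The other 3 probes of Ube2f, at -0.28, -0.17 and -0.031, did not pass, nor did the mean over its probes (-0.20), and leaving out any array but producing array 2 did so for Ube2f (-0.33 to -0.21). The brightest probe of Rbx1, a RING subunit of cullin ligases, fell by 0.30 (limma adjusted p = 0.0155) while its other probe rose by 0.87 (limma adjusted p = 8.10e-05), so its direction is unsettled, and without producing array 1 the former did not pass (-0.29). The count of genes past the test was 2 after leaving out non-producing array 2, non-producing array 3 or producing array 3, and 1 without producing array 1.

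Among 14 tested genes of other proteins with a SOCS box, 3 were higher, 3 lower and 8 not past, with a median of -0.14. Their share past the test was 42.9%, near the 36.7% of all genes, and under scaling to a common median 1 was higher and 7 lower. Asb2, an ankyrin repeat protein that targets filamins for degradation, had the largest difference, 8.93 ± 0.058 against 7.62 ± 0.073 in the producing hybridoma (SD, n = 3). Its log2 difference of -1.31 (limma adjusted p = 1.33e-05) was of the size of the Socs3 difference, and its root mean square distance from the Socs3 profile was 0.075. Asb16, another ankyrin repeat member, rose by 0.62 (limma adjusted p = 0.00169), and its other probe was at 0.21, not past the test. Rab40c, a small GTPase with a SOCS box, rose by 0.46 (limma adjusted p = 0.00638), though not with the arrays scaled to a common median (0.18) or chromosome medians removed (0.16). Spsb1, a SPRY domain protein that targets inducible nitric oxide synthase, fell by 0.42 (limma adjusted p = 0.00498).

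Of the other inhibitors of the pathway, 3 of 14 passed, 1 higher and 2 lower, with a median of -0.17 and 21.4% past the test against 36.7% of all genes. Ptpn1, the phosphatase of JAK2 and TYK2, rose by 0.43 (limma adjusted p = 0.0138), and not without non-producing array 2 (0.40) or with the arrays scaled to a common median (0.15). Usp18, the inhibitor of type I interferon signalling, fell by 0.41 (limma adjusted p = 0.00386), with its other probe at -0.23 not past. Pdlim2, which promotes degradation of STAT factors, fell by 0.39 (limma adjusted p = 0.0094), with 1 of its other 3 probes past the test (-0.27) and the remaining ones at -0.15 and -0.19. With the arrays scaled to a common median 8 genes of this group passed, all lower.

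Genes known from other work to be induced through STAT factors had 4 higher and 2 lower past the test among 23, and their median was 0.11. This was 26.1% of them, against 36.7% of all genes. Under scaling to a common median 1 was higher and 5 lower, so the balance depended on the scaling. Vegfa, the endothelial growth factor, was detected, and so entered the test, through the producing hybridoma alone. Its difference is therefore a description, at least 2.32-fold higher there. This bound compares 6.23 in the producing group with the lowest detected signal on each non-producing array, where the measured mean was 4.75. Ccnd1, the D-type cyclin 1, rose by 0.58 (limma adjusted p = 0.00127), with both other probes past the test (0.39 and 0.56), but not with the arrays scaled to a common median (0.28). Ccnd2, the D-type cyclin of lymphocytes, fell by 0.61 (limma adjusted p = 0.00678), with its other probes at -0.46 and -0.50, both past. Bcl3, an atypical IκB protein, was detected on the non-producing arrays alone and was at least 1.29-fold lower in the other hybridoma (means of 4.86 and 5.45). It entered the test through the non-producing arrays alone, so its difference is also a description. The counts of this group include Vegfa and Bcl3. Pim1, Pim2 and Pim3, serine/threonine kinases induced by STAT5 and STAT3, were at 0.11, -0.0033 and 0.11 and did not pass.

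The STAT letters searched in the SOCS promoters were also counted over the other genes. Of 7675 tested genes with a promoter window, 663 held TTCNNNGAA, and 15.1% of these were past the threshold and lower, against 18.5% of the 7012 without it. The shares past it and higher were 18.7% and 18.4%, and the median log2 differences 0.0088 and 0.0061. Of 20 tested STAT-induced genes with a window, 3 held a match, Bcl6, Irf1 and Irf8.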

How the data were processed

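Total RNA of 6 hybridoma samples was hybridized to Illumina arrays of 45281 probes. The authors deposited, per the file headers, signal intensity that was not normalized and a detection score, a fraction between 0 and 1 headed as a detection p-value. It rises with signal, so it was taken as 1 minus that p-value. How arrays were scanned and background was set is not given in the sources used here. A further table deposited by the authors holds intensity whose sorted columns nearly coincide, as quantile normalization leaves them. Columns matching no sample numbered 0.

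With limma 3.58.1 in R 4.3.3, neqc (controls inferred from detection p-values, offset 16) gave log2 values. Probes detected at p under 0.05 on at least 3 arrays, 17445 in all, entered lmFit and eBayes without covariates (two-sided), with Benjamini-Hochberg adjustment over these probes and a threshold of 0.05. The scripts were tested on simulated data. Log2 differences are producing minus non-producing. Genes detected in 1 hybridoma alone are given as bounds against each array's lowest detected signal. Symbols came from the platform annotation (34885 probes with 1 symbol, 18 with several, 10378 without), updated through gene identifiers to GRCm38.p6, with promoter windows from RefSeq. Promoters matched 4 of 8 members, with chromosome 18, that of Socs6, left out.

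The members, gene lists, tests and alternatives were chosen with earlier results of these data known. All 8 members are named, as are the 4 called genes of each other list that differed most, and the 5 genes nearest to Socs3 in profile; further genes named at or near background, or as not past the test, were chosen after their values were seen. The alternatives were background correction, normalization, the authors' processed values, the filter, the probe rule, chromosome medians, a replicate block and leaving out each array. The 6 arrays carry replicate numbers 1 to 3, and same-numbered arrays correlated at -0.043, -0.16 and 0.088 in their deviations from the group means. The numbers were not taken as pairs, though 3 arrays per group are too few to exclude a pairing.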

Additional observations from a re-analysis of the deposited data

How the results depend on the processing

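The Socs3 log2 difference was -0.83 with an offset of 50 and no negative controls, -0.87 without background correction, -0.87 with the authors' processed values, -1.57 with the arrays scaled to a common median, and -1.39 to -1.29 with 1 array left out. Of 117 values of the 8 members under alternatives, 0 changed sign against a called value and 92 lay within 1 SD of the main value. The SD is each gene's own within-group SD. The filter and the replicate block cannot move a difference read from the same probe, nor can averaging where 1 probe was tested. Part of this agreement was therefore fixed in advance. The members past the threshold numbered 4 to 7 under other processing and 3 to 5 with 1 array left out. The count for receptor chains was 4 with median scaling and 4 without a filter. For the SOCS box ligase it was 2 without a filter and 1 with chromosome medians removed. For the other inhibitors it was 8 with median scaling and 5 with the mean over probes. Rbx1, a gene of the ligase group, was at 0.29 with the mean over its probes. With 1 array left out, counts ran from 1 to 3 for JAK and STAT genes, 3 to 5 for receptor chains, 1 to 3 for the ligase, 2 to 4 for the other inhibitors, 5 to 7 for the other SOCS box proteins, 6 to 7 for STAT-induced genes and 2644 to 2976 for all genes. The causes were not tested. Stat4, Il9r, Ifnar2, Arih2 and Ube2f did not pass without a filter, nor Arih2, Ube2f and Rbx1 with chromosome medians removed. Of 446 values of the other named genes, 392 kept direction and call, 53 kept direction alone and 1 reversed. For the settings that cannot move a difference, direction was fixed in advance here too.

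The replicate numbers were not taken as pairs in the main fit. With the replicate number as a block, 3019 genes passed against 3448 without it, 5 SOCS family members against 6 (Socs4 no longer), 2 JAK and STAT genes against 3 (Stat4 no longer, 0.33, limma adjusted p = 0.0619), 6 receptor chains against 7 and 2 ligase genes against 4 (Arih2 and Ube2f no longer).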
